A study of Mus musculus with 2 samples.

Results

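YY1 peaks centred on single coding start sites were taken from the peak list of 1 YY1 ChIP-seq library, in which chromatin bound by the transcription factor YY1 is recovered with an antibody and sequenced. A peak was included when its summit, the position with the most fragments, lay within 100 bp of the nearest start of a protein-coding transcript (GENCODE M21 basic annotation, mm10). It was left out when coding starts on both strands, or the start of a lincRNA, antisense or processed_transcript gene, lay within 1000 bp. Of the 4681 summits, 1901 lay within 100 bp of a coding start, and 328 of them were removed for paired coding starts, 183 for a noncoding gene and 5 for both. This left 1385 peaks at 1385 start sites of 1381 genes, and 4 genes had more than 1 such peak. The library was made from muscle stem cells (MuSCs) pooled from Ctrl mice of the genotype Pax7CreERT2/R26YFP; Yy1+/+; mdx, so the animals lack functional dystrophin and also carry an inducible Cre driven in Pax7-expressing cells, while both Yy1 alleles are intact. The paper calls the cells freshly isolated, whereas the labels describe cultured MuSCs and wild-type cells. The background for peak calling was 1 library called input in the labels and input (IgG) in the paper, which was not analysed on its own here. A peak list does not measure expression, so the cell type could not be checked against marker genes. There were no replicates, so no test between samples was possible, and the 95% intervals given below cover counting error only.

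YY1 is a zinc-finger protein that can activate or repress transcription depending on its partners. It also holds enhancers and promoters together in loops. It recognises a short sequence with ATGG at its centre, and in many promoters this sequence lies close to where transcription begins. Because ATG is also the codon at which translation starts, a YY1 sequence just inside a gene can coincide with the beginning of the protein-coding sequence. A single coding start site, without a divergent neighbour, allows each peak to be placed upstream or downstream in the direction of transcription.

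The motif AANATGGC, searched on both strands within 100 bp of the summit, showed where the factor's sequence lay at these promoters. The windows below have 30 bases each, read in the direction of transcription of the gene from the reference genome (mm10), with the motif in capitals. The fold enrichment by which windows were picked is the height of the peak over the local background. The first 5 are those of highest fold enrichment in which the ATG of the motif is an annotated start codon, so that the capitals run across the boundary between the leader and the coding sequence.
Chrac1: gacggacgcggAAGATGGCggacgcggccg
Nipsnap2: ggctccggagcAAGATGGCggcgcgggtgt
Ranbp3: cttaaggaagtAAAATGGCggacctggcga
Gbe1: ctgctgcggcgAAGATGGCggcgccggcgg
Ubxn7: gcggcggcggtAAGATGGCtgcccacgggg
They lie at chr15:73090423-73090452, chr5:129725131-129725160, chr17:56673376-56673405, chr16:70314139-70314168 and chr16:32332274-32332303, all on the plus strand. The first motif base was 42 bp downstream of the start site in Chrac1, a subunit of the chromatin accessibility complex. It was 43 bp downstream in Nipsnap2, a mitochondrial protein, and 29 bp in Ranbp3, a cofactor of nuclear export. In Gbe1, the glycogen branching enzyme, and Ubxn7, an adaptor of the segregase p97, it was 16 and 17 bp downstream.

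The next windows show the motif in other places, or on the other strand, where the capitals are its reverse complement, for peaks of high fold enrichment in each arrangement. Upstream windows were taken only where the whole motif lay before the start site, which left out Rab1a (7.78), whose motif spans it on the other strand.
Slain2: gggacggagggAAGATGGCtgccgaggccg
Ddx23: tggaaacgcgaAAGATGGCgactgttcggc
Wiz: gcgccggagccAAGATGGCcgcctccaccg
Actr3: cggcagcggcgGCCATCTTggctccccgcg
Nelfa: caacgggtgccGCCATGTTgggggtcctcg
Naca: ctctttctgccGCCATCTTggttccgtgat
Mtf2: cgcgggaaaccAAAATGGCgaagggctgtt
Tmem131: aagctccggccGCCATCTTaactcctggcc
In Slain2 (chr5:72914368-72914397, plus strand), Ddx23 (chr15:98662861-98662890, minus strand) and Wiz (chr17:32364425-32364454, minus strand) the motif lay on the coding strand, 10, 10 and 20 bp downstream of the start, in an untranslated exon. In Actr3 (chr1:125435658-125435687, minus strand), Nelfa (chr5:33936294-33936323, minus strand) and Naca (chr10:128035645-128035674, plus strand) it lay on the other strand, with its first base in gene direction 51, 101 and 81 bp downstream. In Mtf2 (chr5:108065720-108065749, plus strand) it began 11 bp upstream of the start on the coding strand, and in Tmem131 (chr1:36939863-36939892, minus strand) 59 bp upstream on the other strand.

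The side of the start site, which had no part in choosing the peaks, was evenly divided. Upstream of the start lay 682 summits (49.2%, 95% exact binomial interval 46.6% to 51.9%), 688 lay downstream (49.7%, interval 47.0% to 52.3%) and 15 coincided with the start site. Within the window, which the rule set by this same distance, the summits were densest at the start itself. The distance was taken to the nearest annotated coding start. At the 886 peaks of genes with more than 1 coding start this favours small distances and can change the side. Its part in these counts was not tested. The stretch from 0 to 19 bp downstream held 218 summits and the stretch from 20 to 1 bp upstream held 177, against 100 from 100 to 81 bp upstream and 91 from 80 to 100 bp downstream. Within 50 bp of the start lay 847 summits (61.2%). The peaks reached a median of 186 bp into the gene (interquartile range 121 to 282) and 164 bp upstream of it (107 to 229), and 781 of the 1385 peaks (56.4%, interval 53.7% to 59.0%) extended further downstream than upstream. The limit of 100 bp cut through a continuous distribution. Unk, just inside with its summit 100 bp downstream, had a fold enrichment of 5.76, and Skp1a, 100 bp upstream, had 4.37. Zdhhc17 at 101 bp downstream and Tor4a at 101 bp upstream, just outside, had 7.10 and 4.34.

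**Figure D1:**
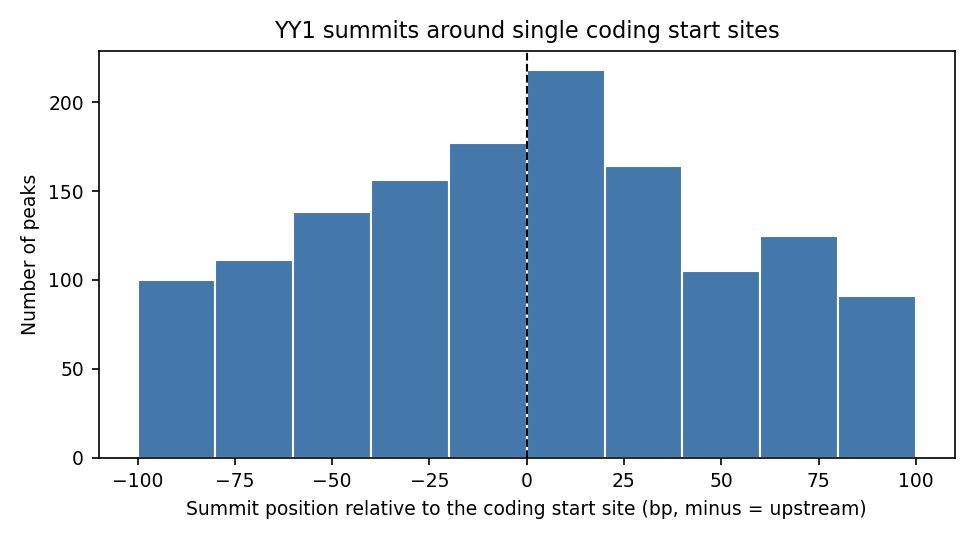
Number of YY1 peaks (vertical axis) by the position of the summit relative to the coding start site in bp (horizontal axis, bins of 20 bp, minus values upstream, dashed line at the start site). The bins beside the start site hold 177 and 218 peaks and the outermost bins 100 and 91.

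The start sites were often not the outermost of the gene. Of the 1385 peaks, 499 were at genes with 1 annotated coding start and 886 at genes with more than 1. Among the latter, 429 (48.4%, interval 45.1% to 51.8%) were centred on the 5′-most coding start and the rest on another annotated start. Such a start can lie very close to the 5′-most one. In Bag6, on the plus strand, it was at chr17:35135205, while the gene begins at 35135178. The spacing of the starts was not measured, and no share for other peaks was computed.

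The peaks centred on start sites were of moderate height. The fold enrichment, which is the ratio of fragments at the summit to the local background after the peak caller added 1 to each of them, ranged from 2.53 to 13.4 with a median of 5.19 (interquartile range 4.44 to 6.21). The summits held 8 to 59 fragments with a median of 15, and the peaks were 215 to 1672 bp wide with a median of 357 bp. A fold enrichment of at least 5 was reached by 842 of the 1385 peaks (60.8%), against 53.9% of all peaks in the list. Under the same exclusions, 869 summits lay farther downstream of a single coding start than this limit, up to 1000 bp, and 629 lay that far upstream. Median fold enrichment was 4.97 in the downstream and 5.13 in the upstream peaks, median fragments were 13 and 15, and median widths were 352 and 390 bp. A fold enrichment of 5 was reached by 49.9% of the downstream and 60.7% of the upstream peaks, so the upstream share was close to that of the centred peaks. All 3 sets overlapped over most of their range. The list had passed a p-value limit at a recovered depth of about 13400000 fragments, and no listed summit had fewer than 8 fragments, so weaker binding was not detectable.

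**Figure D2:**
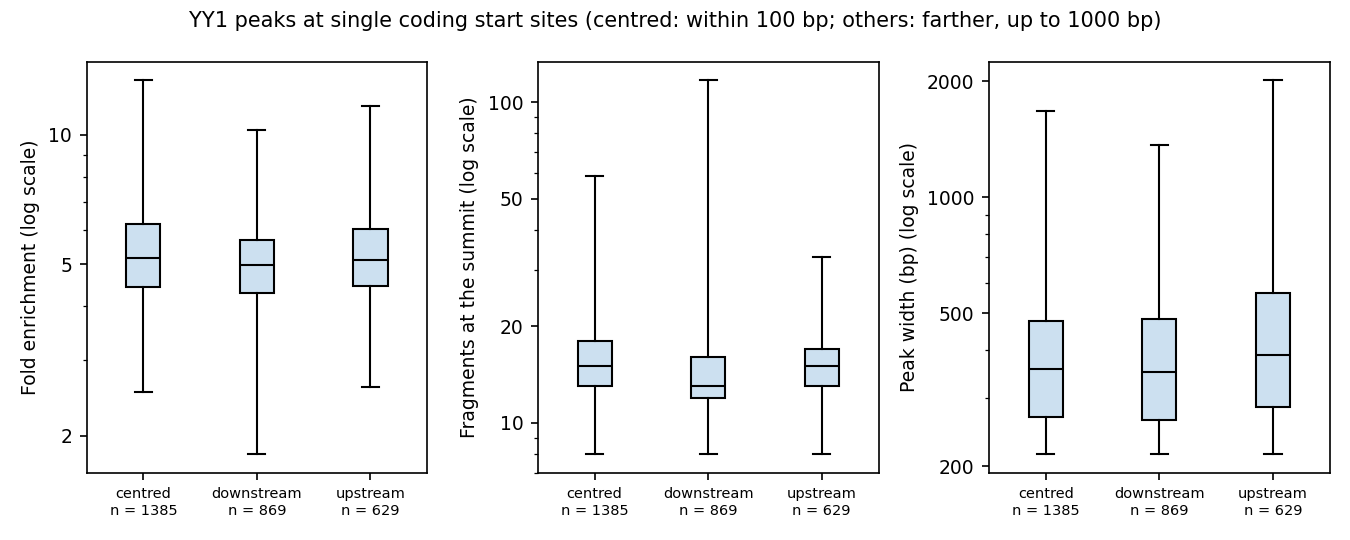
Fold enrichment, fragments at the summit and peak width in bp (log scales) of the 1385 centred peaks and of the 869 downstream and 629 upstream peaks at single coding start sites. Boxes show the median and quartiles and whiskers the lowest and highest value, and the boxes of the 3 sets overlap in each panel.

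The highest peak was at Bag6, a chaperone that guards newly made membrane proteins. Its summit held 33 fragments, with 1.54 as the local background (fold enrichment 13.4), and lay 97 bp downstream of a start that is not the 5′-most of the gene. Mapkapk5, a kinase acting below p38, had 52 fragments over 2.96 (13.4), with the summit 8 bp upstream of the start. Cltc, the heavy chain of clathrin, had 42 fragments over 2.55 (12.1). Tram1, a protein of the endoplasmic reticulum translocon, and Fra10ac1 had 29 fragments over 1.54 each (11.8). All of these summits except that of Bag6 lay within 50 bp upstream of the start. They were followed by Ythdf2, a reader of methylated adenosine in RNA (11.04), and Vdac3, a channel of the outer mitochondrial membrane (10.4). Pdcd2l had a fold enrichment of 10.3, with its summit 22 bp upstream of the start. Kansl3, a subunit of the histone acetylating NSL complex, had 9.86.

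None of the 10 highest peaks held AANATGGC within 100 bp of the summit (exact upper limit 30.8%). The sequences of 100 bases directly upstream of the start sites of Mapkapk5 (chr5:121545906-121546005, minus strand), Cltc (chr11:86757566-86757665, minus strand) and Fra10ac1 (chr19:38224139-38224238, minus strand) are shown because they carry the highest peaks with an upstream summit, no repeated sequence around it and no exon of a coding transcript in that stretch, although the annotated Fra10ac1 gene, with all its transcripts, begins within it. Capitals mark the ETS word CCGGAAG. AANATGGC and the other words counted below were not found in these stretches on either strand. The shorter core ATGGC occurs in Fra10ac1, where it reads gccat, and within 100 bp to each side of the start both Cltc and Fra10ac1 held ATGGC and GGGCGG.
Mapkapk5: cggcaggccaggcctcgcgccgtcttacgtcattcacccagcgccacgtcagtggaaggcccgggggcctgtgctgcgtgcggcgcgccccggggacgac
Cltc: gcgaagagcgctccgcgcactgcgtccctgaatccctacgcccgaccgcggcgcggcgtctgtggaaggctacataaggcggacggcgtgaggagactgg
Fra10ac1: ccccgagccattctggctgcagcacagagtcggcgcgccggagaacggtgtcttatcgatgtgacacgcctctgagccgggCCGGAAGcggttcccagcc
The summits lay 8, 50 and 49 bp upstream of the respective starts, inside these stretches.

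The full motif was more frequent at the centred peaks than at the other peaks of single coding promoters. AANATGGC occurred within 100 bp of the summit in 136 of 1385 peaks (9.82%, interval 8.30% to 11.5%), against 6.63% of all peaks in the list. Of the downstream peaks 40 of 869 held it (4.60%, interval 3.31% to 6.22%), and of the upstream peaks 31 of 629 (4.93%, interval 3.37% to 6.92%). The share in the centred peaks was 2.13 times that in the downstream peaks (95% interval of the ratio 1.52 to 3.004) and 1.99 times that in the upstream peaks (1.36 to 2.91). In windows of equal size centred 2000 bp to each side and free of peaks, 92 of 2761 held it (3.33%, interval 2.69% to 4.07%), so the share at the summits was 2.95 times as high (2.28 to 3.81). For the downstream and upstream peaks the same ratio was 1.42 (0.953 to 2.11) and 1.47 (0.932 to 2.31), and both intervals include 1. The intervals treat windows as independent and do not describe variation between libraries.

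**Figure D3:**
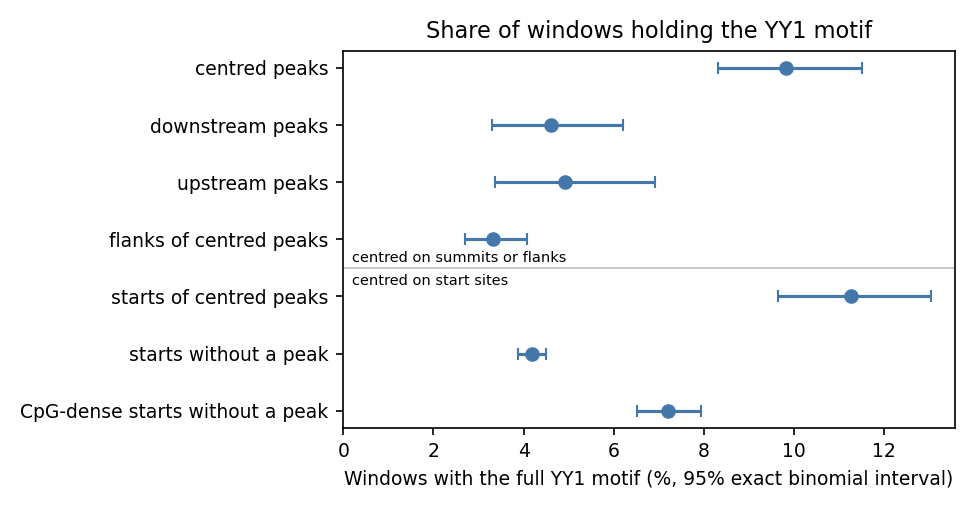
Percentage of windows reaching 100 bp to each side that hold the full YY1 motif, with 95% exact binomial intervals, for peaks and flanks (upper rows) and for windows centred on start sites (lower rows). The centred peaks lie at 9.82%, above the downstream (4.60%) and upstream (4.93%) peaks, and start sites with a centred peak lie at 11.3%, above CpG-dense start sites without a peak (7.20%).

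Peaks with the motif had a median fold enrichment of 5.19 and 15 fragments, and those without it 5.19 and 15 as well. Of the 76 peaks whose fold enrichment reached 8, 3 held the motif (3.95%, interval 0.822% to 11.1%), and of the 303 peaks from 6 to 8, 39 did (12.9%, interval 9.32% to 17.2%). The share was 8.64% of the 463 peaks from 5 to 6, 9.65% of the 373 from 4 to 5 and 10.6% of the 170 under 4. The motif-bearing peaks of highest fold enrichment were Actr3, a subunit of the Arp2/3 actin nucleator (8.74, 30 fragments), Nelfa, a subunit of the negative elongation factor (8.68, 21 fragments), Slain2, a microtubule plus-end protein (8.28, 20 fragments), and Rab1a, a GTPase of early secretory transport (7.78, 20 fragments). They were followed by Chrac1 (7.73), Ddx23, a spliceosomal helicase (7.71), Naca, a chaperone of nascent chains (7.56), and Wiz, a zinc-finger partner of histone methyltransferases (7.49). Tmem131 and Mettl4, an adenine methyltransferase, had 7.49 each. The list stops within a tie, since other motif-bearing peaks, among them Mtf2 and Nipsnap2, had the same value. Actr3 stood in place 44 of all centred peaks by fold enrichment.

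The motif had a preferred place and strand. The 136 peaks held 142 occurrences, of which 94 (66.2%, interval 57.8% to 73.9%) read on the coding strand and 48 on the other. On the coding strand, 75 of the 94 began at or downstream of the start site (79.8%, interval 70.2% to 87.4%) and 56 began within 50 bp downstream of it. The stretch from 0 to 24 bp downstream held 35 of them and that from 25 to 49 bp held 21, against 6 in the 25 bp just upstream. On the other strand 29 of 48 were downstream (60.4%, interval 45.3% to 74.2%), with 9 in each of the 25-bp stretches beside the start. The middle of the motif lay within 25 bp of the summit in 52 of the 142 occurrences (36.6%) and within 50 bp in 86 (60.6%).

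In 47 of the 142 occurrences (33.1%, interval 25.4% to 41.5%), and hence in 47 of the 94 on the coding strand, the ATG of the motif was an annotated start codon of the gene. These genes included Mrpl58 of the mitochondrial ribosome and the respiratory chain genes Ndufa6 and Ndufc1. They also included the proteasome genes Psmd8 and Psmd11, the initiation factor gene Eif3e and the transport genes Vps11, Nsf and Snx27 (chosen after their values were seen). At Ndufa6 the motif began 23 bp downstream of the start and the peak had a fold enrichment of 6.70 with its summit 2 bp upstream. At Mrpl58 it began 20 bp downstream and the peak had 6.70, with its summit 1 bp upstream of the start. Another 33 occurrences on the coding strand, and 34 on the other strand, lay in untranslated exons. The open base of the motif was G in 74 of the 142 occurrences (52.1%), A in 28, C in 27 and T in 13. The letter after the motif was G in 94 (66.2%), and GGC followed it in 51 (35.9%).

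**Figure D4:**
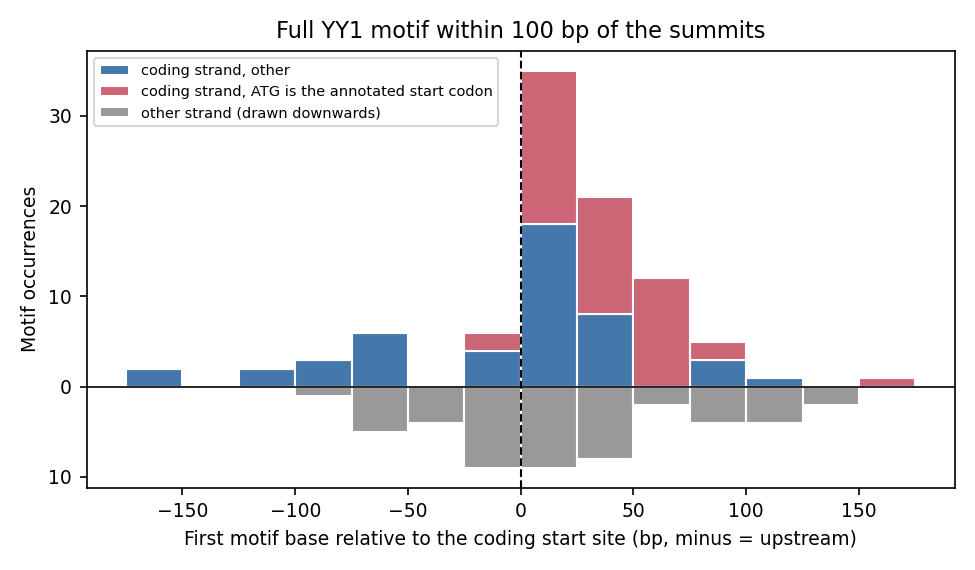
Occurrences of the full YY1 motif within 100 bp of the 1385 summits (vertical axis, counts, other strand drawn downwards) by the position of the first motif base relative to the start site (horizontal axis, bp, bins of 25 bp, dashed line at the start site). The coding-strand occurrences reach 35 in the bin directly downstream of the start, and those whose ATG is the start codon lie almost entirely downstream.

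A lean of the motif to the coding strand downstream of the start was also present at start sites without a peak. For this comparison windows were centred on the start site instead of the summit, and 1 start was taken for each of 15969 coding genes that meet the exclusions and have no summit within 1000 bp of any coding start. That start was the 5′-most one allowed, whereas many bound starts were not the 5′-most of the gene. The part of this in the comparison was not tested. AANATGGC was found at 156 of the 1385 start sites with a centred peak (11.3%, interval 9.65% to 13.0%) and at 4.18% of those without a peak, a ratio of 2.69 (2.28 to 3.18). Downstream of the start, 84 of 116 occurrences at bound starts were on the coding strand (72.4%, interval 63.3% to 80.3%), against 344 of 494 at starts without a peak (69.6%, interval 65.4% to 73.7%). Upstream, the shares were 47.8% of 46 and 52.5% of 200. The ATG was a start codon in 53 of 106 coding-strand occurrences at bound starts and in 235 of 449 (52.3%) at starts without a peak.

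Bound starts were rich in CpG. Their windows had a median of 71.1% G or C and a median ratio of observed to expected CpG of 0.970, against 55.7% and 0.422 at starts without a peak. A window with at least 55% G or C and a CpG ratio of at least 0.65 was called CpG-dense, which held for 1292 of the 1385 bound starts (93.3%) and 5126 of the 15969 others (32.1%). Against the CpG-dense starts without a peak, 7.20% of which held AANATGGC, the ratio of the motif share was 1.56 (1.31 to 1.87). At these CpG-dense starts 79.2% of 293 occurrences downstream of the start (interval 74.1% to 83.7%) and 63.5% of 85 upstream of it were on the coding strand, and the ATG was a start codon in 56.6% of 286 on that strand. Each of these shares was above that at bound starts, with overlapping intervals, and the differences were not tested. The ratio was also computed by place in the gene. For motifs whose ATG is a start codon it was 1.21 (0.893 to 1.64), with 3.83% of bound and 3.16% of CpG-dense unbound starts, and for motifs anywhere else it was 1.83 (1.46 to 2.30), with 7.51% and 4.10%. These 2 intervals overlap, and the difference between the ratios was not tested.

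Sequence words of other promoter factors were also counted within 100 bp of the start, on both strands. CCGGAAG, the core recognised by ETS factors, was present at 271 bound starts (19.6%), at 6.72% of all and 14.3% of CpG-dense starts without a peak, and its ratio over the latter was 1.37 (1.21 to 1.55). GCGCATGC, recognised by NRF1, a regulator of mitochondrial and growth genes, was present at 94 (6.79%, ratio 1.53, 1.21 to 1.93). TCTCGCGA was present at 41 (2.96%, ratio 1.997, 1.37 to 2.91). CCAAT, the box bound by NF-Y, was less frequent at bound starts (19.5%) than at CpG-dense starts without a peak (26.7%), with a ratio of 0.730 (0.6503 to 0.821). ACTACAAN, part of the ZNF143 sequence, had a ratio of 0.601 (0.371 to 0.972). GGGCGG, bound by Sp and Klf factors, was present at 72.1% and 71.0% (ratio 1.01, 0.978 to 1.05), and the ratios of TGACGTCA and CACGTG, 1.16 (0.843 to 1.58) and 1.06 (0.876 to 1.28), also had intervals that include 1. A TATAAA beginning 35 to 20 bp upstream of the start was found at 6 bound starts (0.433%, interval 0.159% to 0.941%), against 2.82% of all starts without a peak and 0.878% of the CpG-dense ones.

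At bound starts these words lay mostly upstream of the start and the YY1 motif mostly downstream. The motif also lay mostly downstream at starts without a peak, with 494 occurrences there against 200 upstream. The positions of the other words were not computed at those starts. At bound starts 24.7% of the AANATGGC occurrences had their middle upstream of the start, against 60.8% for CCGGAAG, 74.1% for GCGCATGC, 78.6% for TCTCGCGA and 79.8% for CCAAT. Examples from the highest peaks that hold them are shown as 30 bases in gene direction with the word in capitals.
Tram1: ttcttcctggtGCGCATGCtcgccaccgct
Eif4a3: agcgcggaataTCGCGAGAcctggagcgcc
In Tram1 (chr1:13589950-13589979, minus strand) the NRF1 word began 58 bp upstream of the start and the summit lay 33 bp upstream. In Eif4a3 (chr11:119300129-119300158, minus strand), a helicase of the exon junction complex, TCTCGCGA began 58 bp upstream on the other strand and the summit lay 61 bp upstream. At least 1 of AANATGGC, CCGGAAG, GCGCATGC and TCTCGCGA was present at 489 of the 1385 bound starts (35.3%) and none of them at 896 (64.7%). Of the starts with AANATGGC 28.8% also held another of the 4 words, and of those without it 27.1% did.

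Among 18944 coding genes with a start site that meets the exclusions, called eligible genes here, 1381 (7.29%) had a centred peak. The following lists were defined by gene symbol. Each count is set against this share and against 16.1%, the share among the 7468 eligible genes with a CpG-dense start. The list counts include genes whose start is not CpG-dense, so the 16.1% has an unlike base. Shares of the lists among CpG-dense genes alone are given further below. The lists were described by their counts and were not tested. Their shares cover centred peaks at eligible genes and do not measure how often the promoters of a list were bound. Over all genes of a list, a promoter peak, centred or not, was found at 45 of 78 splicing factor genes. It was found at 22 of 48 proteasome and 29 of 77 mitochondrial ribosomal genes.

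Among genes of protein synthesis, the cytosolic ribosomal protein and translation factor lists had shares above both values, and the synthetase and mitochondrial ribosomal lists lay between them. Among CpG-dense genes alone the synthetases had 19.05% (4 of 21), above 16.1%, and the mitochondrial ribosomal proteins 12.1% (4 of 33), below it. Of 66 eligible cytosolic ribosomal protein genes 19 had a centred peak (28.8%, interval 18.3% to 41.3%), with fold enrichments from 3.78 to 9.46 and a median of 5.52. The highest was Rpl27 of the large subunit, with 23 fragments over 1.54 and a fold enrichment of 9.46, followed by Rpl22 (7.10). Of 52 eligible translation factor genes 15 had one (28.8%, interval 17.1% to 43.1%), the highest being Eif4h (8.74) and Eif4a3 (8.28). Aminoacyl-tRNA synthetases had 4 of 26 (15.4%), led by Dars (6.39) and Tars (6.31), and mitochondrial ribosomal proteins had 5 of 45 (11.1%, interval 3.71% to 24.1%), led by Mrpl12 (9.26) and Mrpl58 (6.70).

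RNA polymerase, general factor and Mediator genes had 20 of 72 (27.8%, interval 17.9% to 39.6%), led by the Mediator subunit Med6 (7.56) and the polymerase subunit Polr2e (7.04). RNA helicases had 11 of 38 (28.9%, interval 15.4% to 45.9%), led by Ddx23 (7.71) and Ddx39b (7.19), and splicing factors had 9 of 48 (18.8%, interval 8.95% to 32.6%), led by Snrpc (9.07) and Sf3b1 (6.87).

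The proteasome list had the highest share of centred peaks, with 13 of 35 eligible genes (37.1%, interval 21.5% to 55.1%). It was led by the regulatory particle subunits Psmd1 (21 fragments over 1.54, fold enrichment 8.68) and Psmd12 (24 over 1.91, 8.59). Ubiquitin conjugation and cullin genes had 12 of 98 (12.2%), among them Ube2f (8.15). Chaperones had 12 of 62 (19.4%, interval 10.4% to 31.4%), led by Dnaja4 (9.07) and Cct4 (8.07). Vesicle coat and trafficking genes had 30 of 158 (18.99%, interval 13.2% to 25.98%), led by Cltc (12.1) and Sec61a1 (9.29). Core autophagy genes had 4 of 20, led by Atg5 (6.29) and Atg2a (5.04).

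Oxidative phosphorylation genes had 14 of 56 (25%, interval 14.39% to 38.4%), led by Ndufab1, the acyl carrier subunit of complex I (9.07), and Ndufa4 (8.40). Cell cycle and replication genes had 14 of 80 (17.5%), led by Pole4 and Cdc16 (7.49 each), and histone modifiers had 10 of 64 (15.6%), led by the arginine methyltransferase Prmt5 (9.26) and the H3K79 methyltransferase Dot1l (7.04). DNA repair genes had 5 of 45 (11.1%), led by Brca2 (8.89) and Rad54l2 (7.68). Zfp zinc-finger genes had 29 of 356 (8.15%, interval 5.52% to 11.5%), led by Zfp553 (7.49) and Zfp770 (7.39).

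No centred peak was found at 49 eligible sarcomere genes (exact upper limit 7.25%), at 13 myogenic regulators (24.7%) or at 52 chemokine and chemokine receptor genes (6.85%). Few of these genes have a CpG-dense start, namely 9, 4 and 3. The absence concerns centred peaks at eligible genes. Over all genes of each list, a promoter peak, centred or not, was found at 3 of 50 sarcomere genes. It was found at 3 of 13 myogenic regulators and at 1 of 55 chemokine and receptor genes. When only CpG-dense genes were counted, against their 16.1%, the share was 45.8% for the proteasome (11 of 24, interval 25.6% to 67.2%), 34.0% for cytosolic ribosomal proteins (17 of 50, 21.2% to 48.8%), 32.6% for translation factors (15 of 46, 19.5% to 48.0%), 30.8% for oxidative phosphorylation (12 of 39, 17.0% to 47.6%). It was 32.3% for RNA helicases, 26.7% for RNA polymerase and general factors, 25% for both vesicle trafficking and chaperones, 21.6% for splicing factors and 20.6% for cell cycle genes. It was 19.05% for aminoacyl-tRNA synthetases, 18.8% for autophagy, 17.4% for histone modifiers, 15.8% for ubiquitin conjugation and 14.7% for DNA repair. For Zfp genes it was 13.8% (23 of 167, 8.94% to 19.9%) and for mitochondrial ribosomal proteins 12.1% (4 of 33, 3.403% to 28.2%). The full motif, held by 9.82% of all centred peaks, was also counted in each list. It was present in 4 of 19 cytosolic ribosomal protein peaks, 4 of 20 RNA polymerase and general factor peaks, 7 of 30 vesicle trafficking peaks and 5 of 12 ubiquitin conjugation peaks. The proteasome had it in 2 of 13 peaks, RNA helicases in 2 of 11, oxidative phosphorylation in 2 of 14, Zfp genes in 2 of 29, mitochondrial ribosomal proteins and DNA repair in 1 of 5 each, chaperones in 1 of 12, cell cycle genes in 1 of 14 and translation factors in 1 of 15. It was in 0 of 10 histone modifier, 0 of 9 splicing factor, 0 of 4 autophagy and 0 of 4 synthetase peaks. These counts are small and were not tested.

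**Figure D5:**
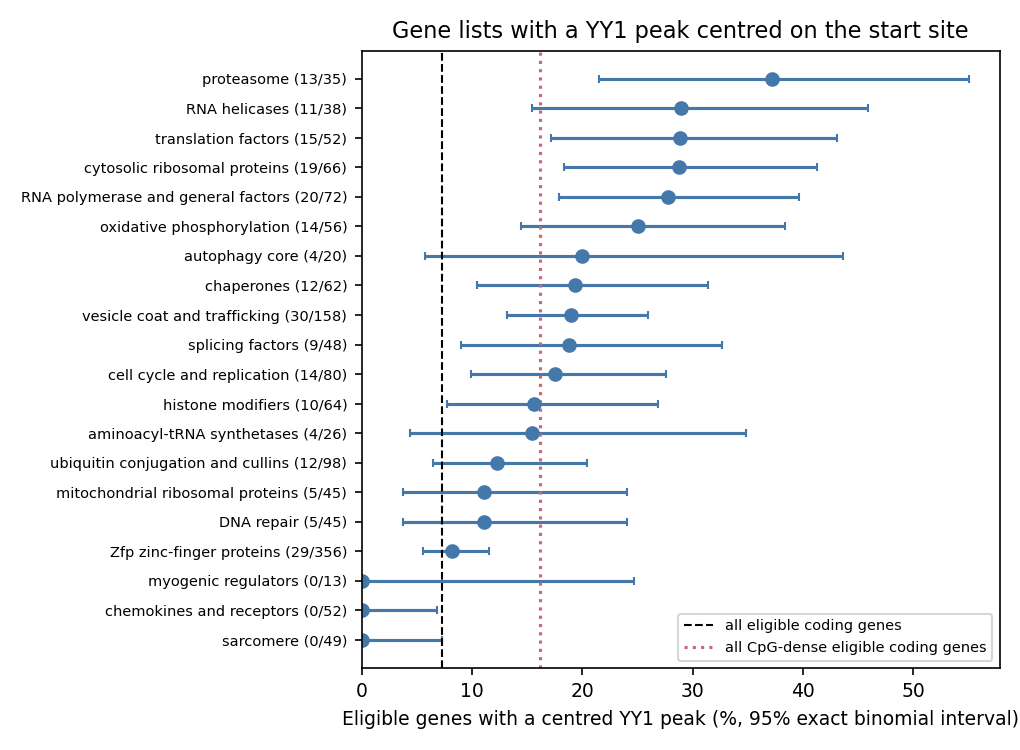
Percentage of eligible genes of each list with a YY1 peak centred on a start site (points, with 95% exact binomial intervals, counts in brackets), beside the share of all eligible coding genes (dashed line, 7.29%) and of CpG-dense eligible coding genes (dotted line, 16.1%). The proteasome lies highest at 37.1% and the sarcomere, chemokine and myogenic lists at 0.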

How the data were processed

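Per the labels and the paper, reads were trimmed, filtered and aligned to mm10 by Bowtie2, and duplicates were discarded. MACS2 then called peaks against the background library, under a p-value limit of 0.0001 (versions not given in the sources used here). Fold enrichment, as deposited, is a ratio of summit fragments to local background, each with 1 added. The authors' file also holds p-values and q-values as −log10, and a deposited score that was not used. Summits were placed against GENCODE M21 start sites, and sequences were read from GRCm38, whose chromosomes are those of mm10. Fragments were recovered from fold enrichment and p-value, matching −log10 p within 0.001 for all 4681 peaks. The depth of about 13400000 fragments follows from the most frequent local background, 1.54, and the narrowest peak, 215 bp. The paper's reporting summary gives a nearly equal number as uniquely mapping reads of a paired-end run. Whether the units called fragments here are reads or read pairs is therefore not certain. Shares have exact binomial (Clopper-Pearson) intervals and ratios of shares have log (Katz) intervals. No test was run, since there is 1 library and no replicate. The peaks, gene lists and words were chosen with earlier results of these data known. Genes named are the 10 highest peaks, the 10 highest with AANATGGC, the 2 highest of each list, those at the distance limit and high peaks of each motif arrangement, leaving out uncharacterised genes, chromosome 18 and an item that is not reported here. The scripts, run with Python 3.11.15 (scipy 1.17.1, pandas 2.3.3, pysam 0.24.0, numpy 2.4.6, matplotlib 3.10.9), were tested on simulated data. Alternatives were other limits on peaks, distances, start sites, motif forms, motif windows and backgrounds.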

Additional observations from a re-analysis of the deposited data

How the results depend on the processing

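Keeping peaks whose fold enrichment reached 5 left 842 peaks, by construction, with 46.9% of summits downstream and a median fold enrichment of 5.92. Keeping summits within 50 bp of the start left 847. The share with AANATGGC was 7.93% within 200 bp of a start, 5.78% in motif windows of 50 bp and 16.1% in windows of 200 bp. Its ratio over flanking windows was 3.91 within 50 bp of a start. Against CpG-dense starts without a peak, a background chosen after the data were seen, it was 1.56. With AAGATGGC the share was 5.27%, the ratio 4.85, the coding-strand share 79.7% and the start-codon share 50%. With the core ATGGC they were 34.3%, 1.10, 56.5% and 23.5%, where a shorter word matches more often by construction. Apart from these, the cause of a change was not tested. The other alternatives, including a q-value under 0.01, other exclusion distances and leaving out peaks with repeated sequence (added after the data were seen), stayed within the intervals of the values reported or, for the number of peaks, within 1.5 times it. No paired analysis was possible because a single YY1 library was sequenced, and no replicate could be left out. Peaks with fewer than 8 fragments cannot be seen at this depth.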

Other observations

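YY1 peaks at promoters, centred or not, were rarer on the X chromosome than on the autosomes. A summit within 1000 bp of any coding start was found at 2.15% of eligible genes on X and 16.5% on the autosomes, and at 6.02% and 32.1% of those with a CpG-dense start. Of 884 eligible genes on X, 10 had a centred peak (1.13%, 95% exact binomial interval 0.544% to 2.07%), against 1371 of 17878 on the autosomes (7.67%, interval 7.28% to 8.07%). Among genes with a CpG-dense start the numbers were 9 of 216 (4.17%, interval 1.92% to 7.76%) and 1196 of 7250 (16.5%, interval 15.6% to 17.4%). The X-linked genes were Cstf2, Fhl1, Fundc1, Htatsf1, Mmgt1, Rlim, Tceanc, Zbtb33, Zfx and an uncharacterised gene (chosen after their values were seen). Rlim is a ubiquitin ligase that acts in X inactivation, and Fhl1 is a LIM-domain protein of muscle. The local background at these 10 peaks had a median of 1.76 fragments, against 1.98 at the autosomal peaks, and the median fold enrichment was 4.86 against 5.19. The part of X copy number in this difference was not tested. None of the centred peaks lay on Y, where 182 genes were eligible.

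Few of the peaks held sequence that is repeated exactly elsewhere in the reference. Reads and inexact copies were not examined. Of 1385 peaks, 1274 (92.0%) held no stretch of 32 bases, within 100 bp of the summit, that occurs again on the reference chromosomes, and in 13 more than 50% of the stretches did. Among the latter were the copies Mterf1a (fold enrichment 7.06) and Mterf1b (7.68) on chromosome 5, and Rnaset2a (3.66) and Rnaset2b (5.04) on chromosome 17, whose separate heights are therefore uncertain (chosen after their values were seen).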
